A study of Mus musculus with 3 samples.

Results

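Epitenon cells of flexor digitorum longus (FDL) tendons were compared between 21 M B6 mice and younger WT mice by single-cell RNA sequencing. The cells were chosen by measured counts of marker genes. A barcode was kept when it had 1000 to 5000 detected genes and no more than 10% of its counts from mitochondria. A kept cell was taken as epitenon when it held at least 10 unique molecular identifiers (UMIs, the counted RNA molecules) over the 6 genes *Efemp1*, *Pi16*, *Scara5*, *Cd248*, *Krtdap* and *Ccn3*. That sum also had to exceed the sum over the 4 tenocyte genes *Tnmd*, *Fmod*, *Kera* and *Cilp2*. The cell could hold at most 2 UMIs of *Tyrobp* and *Fcer1g*, which mark myeloid cells, and none of *Pecam1* and *Cdh5*, which mark endothelium. The rule gave 957 of 8357 kept cells in WT and 2052 of 4798 in B6, which is 3009 of the 13155 kept cells of both libraries and of 19709 in the whole series.

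Each group was 1 library made from 16 pooled FDL tendons of male and female mice. The WT animals were Scx-Cre-; Rosa-DTR F/+ littermates that lacked Cre, so diphtheria toxin (DT) had no receptor to act through, and they received 5 daily DT injections at 3 months of age. The B6 animals were C57BL/6J mice aged 21 months with neither transgene nor toxin. The remaining library, DTR, came from Scx-Cre+; Rosa-DTR F/+ mice given the same DT, in which Cre under the *Scx* promoter makes Scleraxis-lineage tendon cells sensitive to the toxin. The labels carry 3 months for WT and DTR, while the study's text places their harvest at 6 months. Collagenase digestion lasted 120 min for WT and 90 min for the other libraries. Age, DT, the transgene, digestion time and library therefore all differed between WT and B6 and cannot be told apart. DTR shared its digestion time with B6 and its DT and age with WT, so its values are given beside both.

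The epitenon is the thin connective tissue layer that wraps a tendon, carries its vessels and nerves and lets it glide. Its fibroblasts make collagens, hyaluronan and lubricin, and they sense inflammatory signals from the surroundings. Interferons act on such cells through STAT and IRF transcription factors, which switch on genes for antiviral effectors and immunity-related GTPases. Misfolded protein instead activates the factor HSF1, which raises the heat shock chaperones.

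The cells carried fibroblast markers. Of 12 genes of stromal fibroblasts and tendon sheath that the rule did not use, all 12 were above 10 CPM (counts scaled to 1000000 UMIs summed over the cells of a library) and none differed 2-fold between B6 and WT. Decorin (*Dcn*) stood at 10565 CPM in WT and 10572 CPM in B6, and lubricin (*Prg4*) at 6655 and 5621 CPM. The 12 genes do not set these cells apart from tenocytes, in which they summed to 47145 CPM in WT against 24421 CPM in epitenon cells, through *Dcn* and *Prg4*. *Dpt*, *Cd34* and *Cd55* were at 455, 705 and 837 CPM in WT epitenon cells and at 20.1, 58.9 and 111 CPM in WT tenocytes. Tenocyte markers summed to 1994 CPM in WT, 1325 in DTR and 1196 in B6 epitenon cells, against 31987 CPM in WT tenocytes. Summed macrophage markers were at 36.6 CPM in WT, 52.2 in DTR and 36.0 in B6. Endothelial markers summed to 7.07, 8.16 and 8.41 CPM and T cell markers to 10.0, 10.8 and 2.21 CPM, and adipocyte and keratinocyte markers were at or near 0. The tenocyte, macrophage and endothelial sums include genes that the rule itself limits, so their low values are partly set by the rule. Those genes are the tenocyte genes of the rule, *Tyrobp* and *Fcer1g*, and *Pecam1* and *Cdh5*. Neutrophil markers summed to 6.81 CPM in WT, 0 in DTR and 0.158 in B6. Mural markers summed to 107, 338 and 40.6 CPM, with *Acta2* at 32.8 CPM in WT and 6.14 in B6. Muscle markers summed to 12.4, 51.4 and 49.5 CPM and erythroid markers to 788, 2416 and 576 CPM. Schwann markers were at 62.5, 49.8 and 59.5 CPM. The part of these cells' RNA in the differences below was not tested.

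The epitenon cells had a median of 16299 UMIs and 3829 genes in WT, 16528.5 UMIs and 3793.5 genes in DTR, and 14913.5 UMIs and 3242 genes in B6. Their summed counts came to 15706048, 15694368 and 31733858 UMIs. The whole libraries held 92707026 to 148149903 UMIs over 12273 to 16099 barcodes, and WT and B6 had 65 barcodes in common, 1 of them an epitenon cell. Of the cells whose sex could be called from *Xist* and Y-linked counts, 69.2% were female in WT, 45.1% in DTR and 55.4% in B6. Mitochondrial counts made up 2.60%, 2.59% and 4.33% of the epitenon UMIs, and the locus *Gm42418*, which holds ribosomal RNA sequence, 1.22%, 1.16% and 4.63%. There was no replicate library, so no difference was tested and all intervals are exact ones at 95% that cover counting error only.

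Epitenon cells made up 11.5% (10.8 to 12.2) of kept cells in WT, 14.8% (13.9 to 15.7) in DTR and 42.8% (41.4 to 44.2) in B6. The rule itself sets these shares and they move with how many other cells were captured: tenocytes found with the same genes numbered 5055 in WT, 2579 in DTR and 937 in B6. How well cells were released from the tissue was not measured, and its part in the shares was not tested. The median cell held 40 UMIs of the 6 genes in WT, 35 in DTR and 36 in B6. Just inside the threshold, at 10 to 12 UMIs, were 79 WT and 153 B6 cells, and just outside, at 7 to 9 UMIs, 82 and 140 cells. Cells with no UMI of the 4 tenocyte genes were 45.5% of WT, 57.0% of DTR and 75.6% of B6 epitenon cells.

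Within the epitenon, cells led by *Krtdap* and *Ccn3* were 87.0% (84.7 to 89.1) in WT, 81.0% in DTR and 75.8% (73.9 to 77.7) in B6. Cells led by *Pi16*, *Scara5* and *Cd248*, the markers of perivascular and adventitial fibroblasts, were 11.3% (9.35 to 13.5), 17.3% and 21.7% (19.97 to 23.6). The second kind took a larger share of the B6 cells, and each comparison was therefore also made inside each kind. Among the 6 genes that chose the cells, *Efemp1*, an extracellular matrix glycoprotein, stood at 165 CPM in WT, 142 in DTR and 395 in B6, and *Krtdap* at 733, 376.6 and 579 CPM.

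Across genes, 7750 had at least 10 CPM in WT or B6 and were compared, without the 14 genes of the rule. In B6, 153 genes were at least 2-fold higher, which is 1.97% of those compared, and 122 were at least 2-fold lower, which is 1.57%. Of the 153 higher genes, 65 reached 10 CPM in B6 alone and 88 in both libraries, and of the 122 lower genes, 64 reached it in WT alone. The median log2 ratio of B6 over WT was −0.27 over all genes compared, beside the larger share of *Gm42418* and mitochondrial counts in B6 given above. Of the 7750 genes, 1565 stood above WT and 6185 below, so a count of list members below WT says little by itself. Scaling with trimmed mean of M-values (TMM) factors added 0.28 to every log2 ratio and turned the split into 269 higher and 62 lower genes. Ratios near 1 are thus read against that shift. The 30 genes with the largest ratios among those with at least 50 CPM in WT or B6 were taken, 15 on each side, and 29 of them are named below. The scatter plot of B6 against WT levels shows them at the edges of a narrow band.

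**Figure D1:**
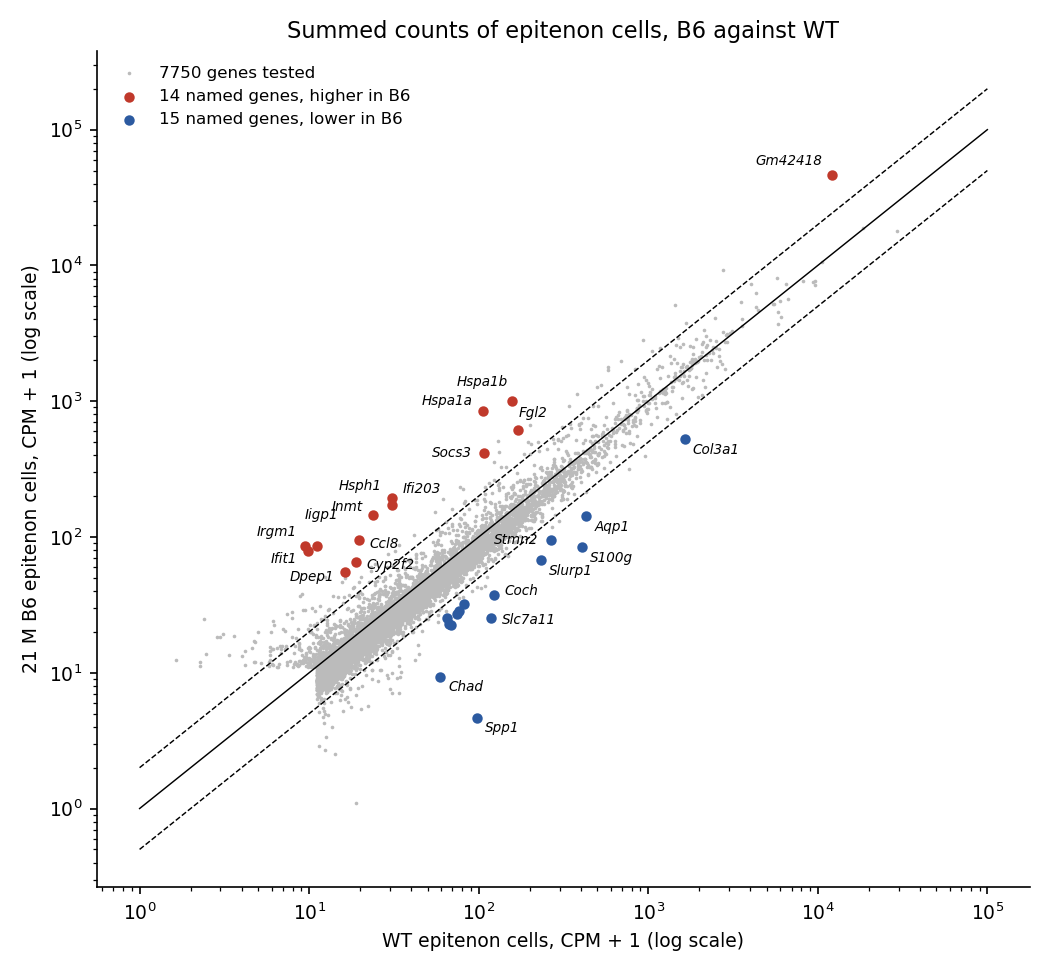
Summed counts of epitenon cells as CPM + 1 on log axes, WT on the x axis and B6 on the y axis, with 1 point for each of 7750 genes. The solid line marks equal levels and the dashed lines a ratio of 2 either way; red points are the 14 named genes higher in B6 and blue points the 15 lower, of which *Irgm1* lies 10.0-fold above WT and *Spp1*, whose RNA in tenocytes is far more abundant, 26.4-fold below it, and the points without a name are *Serpinb7*, *Chrdl1*, *Dkk3*, *Egln3*, *Crabp2* and *Mpp6*.

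Interferon-induced genes took the top of this order. All 23 listed genes of the interferon response stood higher in B6 than in WT, whatever their level. Their counts summed to 1542 CPM in WT, 1264 in DTR and 2439 in B6, a total that rested mostly on *Ifitm3*. Of the 19 that passed the filter, 11 were at least 2-fold higher and none lower, but 8 of the 11 reached 10 CPM only in B6, so that count is a description. The list's median log2 ratio was 1.08, and it was −0.18 for DTR over WT and 1.81 for B6 over DTR, comparisons that share libraries with the first. Of the 19 genes, 9 passed the filter through B6 alone, which tilts the medians of B6 over WT and over DTR upward. The list's medians are thus a description too, here and in the kinds and cell types below. The 4 listed genes below the filter were *Gbp3*, *Gbp5*, *Rsad2* and *Usp18*, and *Rsad2*, which encodes the antiviral protein viperin, was at 1.40 CPM in WT and 8.85 in B6.

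*Irgm1*, a GTPase that controls autophagy and defence against intracellular microbes, was at 8.47 CPM in WT, 9.37 in DTR and 84.7 in B6, a ratio of B6 over WT of 10.0 (8.41 to 12). *Ifit1*, which binds foreign RNA ends, was at 8.79, 5.99 and 78.5 CPM, a ratio of 8.93 (7.52 to 10.7). *Iigp1*, another immunity-related GTPase, was at 10.1, 7.90 and 85.02 CPM, a ratio of 8.40 (7.15 to 9.92). For these 3 genes B6 stood above both other libraries. The ratio of DTR over WT was 1.11 (0.869 to 1.41) for *Irgm1*, 0.682 (0.519 to 0.892) for *Ifit1* and 0.780 (0.612 to 0.993) for *Iigp1*. In cells led by *Pi16*, *Scara5* and *Cd248*, WT and DTR were at 26.8 and 3.36 CPM for *Ifit1*. They were at 28.0 and 4.48 CPM for *Iigp1* and at 11.9 and 8.22 CPM for *Irgm1*. The size of the difference varied with the cells taken. In cells called male, *Ifit1* had 3 UMIs in 264 WT cells, which is 0.700 CPM, against 88.9 CPM in B6, and in cells called female it was at 12.9 and 79.8 CPM. *Iigp1* was at 2.33 and 60.7 CPM in male and 14.8 and 100.8 CPM in female cells, and its ratio was 4.19 and 13.9 when at least 5 and 20 epitenon UMIs were asked for. *Isg15*, the ubiquitin-like modifier, was at 7.83, 9.81 and 35.9 CPM and *Oasl2*, of the oligoadenylate synthetase family, at 2.36, 2.23 and 12.5 CPM. *Igtp* was at 3.76, 3.50 and 11.0 CPM. Among transcription factors that carry the response, *Irf7* was at 8.40, 7.39 and 27.9 CPM and *Stat2* at 12.7, 8.73 and 35.5 CPM. *Ifi203*, outside the list and a member of a family of near copies that can share reads, was at 29.7, 21.1 and 169.8 CPM, a ratio of 5.71 (5.19 to 6.29), or 2.60 in the *Pi16* kind.

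The factors of the interferon response bind repeats of GAAA. In the RefSeq promoter windows of build GRCm38.p6, which reach from upstream of the start into the transcript, a pair of GAAA repeats with any 2 bases between them, read on both strands with overlaps allowed, was found in 13 of the 17 matched genes of the list. Of all 27025 genes in that table, 3.99% held it. Among the genes at least 2-fold higher in B6, 7 of 9 matched ones had it, and among the other matched genes of the list that passed the filter, 3 of 5. The 150 bases upstream of the start are shown for 4 higher genes because they carry the motif, with its matches in capitals. They lie at chr4:156200819-156200968 on the minus strand for *Isg15*, at chr11:48871421-48871570 on the minus strand for *Irgm1*, at chr11:58199406-58199555 on the plus strand for *Igtp* and at chr19:34640739-34640888 on the plus strand for *Ifit1*.
Isg15: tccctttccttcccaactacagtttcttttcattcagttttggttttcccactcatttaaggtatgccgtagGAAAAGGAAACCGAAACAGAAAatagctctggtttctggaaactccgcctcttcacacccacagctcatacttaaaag
Irgm1: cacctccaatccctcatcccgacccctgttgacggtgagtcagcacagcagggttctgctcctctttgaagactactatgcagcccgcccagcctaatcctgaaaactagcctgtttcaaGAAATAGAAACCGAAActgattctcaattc
Igtp: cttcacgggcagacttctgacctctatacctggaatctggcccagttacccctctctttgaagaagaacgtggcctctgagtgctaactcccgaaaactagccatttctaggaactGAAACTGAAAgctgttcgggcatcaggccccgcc
Ifit1: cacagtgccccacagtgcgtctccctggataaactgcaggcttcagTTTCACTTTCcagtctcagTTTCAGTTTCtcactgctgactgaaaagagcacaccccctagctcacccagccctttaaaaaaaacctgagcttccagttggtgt
The *Isg15* and *Irgm1* windows hold overlapping matches on the gene's own strand, 3 and 2 of them, and *Ifit1* has 2 separate matches on the other strand. A match is a description of the sequence and not of binding.

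The share of cells with a UMI gives the same picture cell by cell, for which each cell was first drawn down to 2000 UMIs (thinned) and none was left out. *Irgm1* was detected in 1.67% (0.959 to 2.70) of WT and 11.99% (10.6 to 13.5) of B6 epitenon cells, and in 2.15% and 5.26% of macrophages. Unthinned, the epitenon shares were 8.78% and 31.7%. *Ifit1* went from 1.15% to 5.51% and *Iigp1* from 1.15% to 6.04%. At least 3 different genes of the list were seen in 16.2% of WT, 13.6% of DTR and 36.1% of B6 cells. Thus most B6 cells showed few of these transcripts at this depth, and macrophages, which can express these genes themselves, had median depths of 16385 UMIs in WT and 14748 in B6. *Ifit1* was in 2.51% and *Iigp1* in 0.539% of WT macrophages and in 3.51% and 1.75% of B6 macrophages. The WT epitenon shares of *Irgm1* and *Ifit1* did not exceed those of macrophages. Because macrophages can express both genes, these shares cannot tell background from epitenon expression in WT.

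Both kinds of epitenon cell showed the higher levels, less steeply in the *Pi16* kind. The list's median log2 ratio was 1.23 in cells led by *Krtdap* and *Ccn3* and 0.81 in cells led by *Pi16*, *Scara5* and *Cd248*. *Ifit1* was 10.4-fold and 3.54-fold higher in the 2 kinds, where WT cells of the *Pi16* kind, of which there were 108, held 26.8 CPM against 6.75 CPM in the *Krtdap* kind. The median was 0.94 in tenocytes and 0.28 in macrophages of the same libraries, so the higher level was not seen in epitenon cells alone. *Irgm1* was 3.53-fold higher in tenocytes and 2.02-fold higher in macrophages. Differences between these cell types were not tested.

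**Figure D2:**
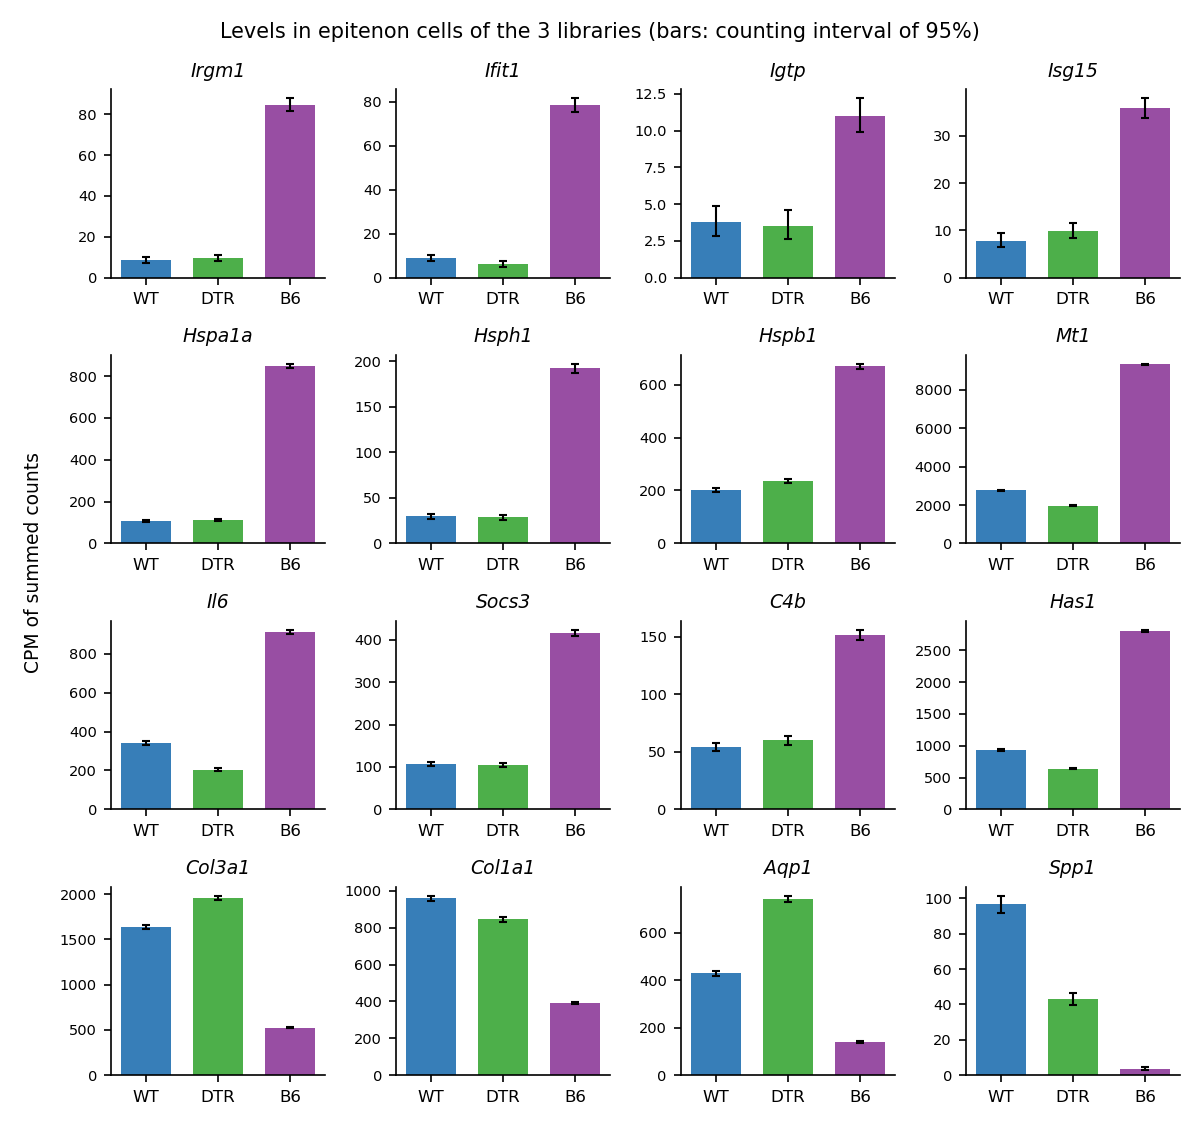
CPM of summed epitenon counts in the WT, DTR and B6 libraries for 16 genes, with exact 95% counting intervals as error bars and 1 library a bar. B6 stands above both other libraries for the 12 genes of the upper 3 rows, such as *Hspa1a* at 848 CPM against 106 and 112, and below both for *Col3a1*, *Col1a1*, *Aqp1* and *Spp1*.

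Heat shock genes had the highest median of the pathway lists compared. All 14 listed chaperone genes stood higher than in WT, all 14 passed the filter in both libraries, and 9 were at least 2-fold higher, with none lower. The median log2 ratio was 1.28, beside −0.27 over all genes, and it was −0.09 for DTR over WT and 1.44 for B6 over DTR. The 14 genes summed to 5154 CPM in WT, 4894 in DTR and 11552 in B6.

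The inducible HSP70 genes *Hspa1a* and *Hspa1b* are near-identical copies, so reads could have been split between them. *Hspa1a* was at 106 CPM in WT, 112 in DTR and 848 in B6, a ratio of 8.03 (7.65 to 8.45), and *Hspa1b* at 156, 175 and 1003 CPM, a ratio of 6.44 (6.18 to 6.71). *Hsph1*, which reloads HSP70 with ATP, was at 30.0, 28.7 and 192 CPM, a ratio of 6.42 (5.84 to 7.06). For these genes, WT and DTR lay together and B6 apart. The small chaperone *Hspb1* was at 201, 237 and 669 CPM and *Dnajb1*, an HSP40 partner, at 76.5, 88.4 and 232 CPM. *Hsp90aa1* was 2.97-fold higher than in WT, *Dnaja1* 2.59-fold, the co-chaperone *Bag3* 2.29-fold and *Hspa8* 2.1-fold. Members that did not reach 2-fold included the constitutive *Hsp90ab1*, with a ratio of 1.30, the mitochondrial *Hspd1* at 1.68 and *Hspe1* at 1.41, and *Cryab* at 1.07.

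The heat shock difference widened the spread between cells. A thinned cell held a median of 9 UMIs of the list in WT, 9 in DTR and 16 in B6, and its 90th percentile was 17, 15.3 and 45 UMIs. *Hspa1a* was detected in 15.7% (13.4 to 18.1) of WT and 41.9% (39.8 to 44.1) of B6 cells, and in macrophages in 35.0% and 58.3%. The median log2 ratio was 1.35 and 1.10 in the *Krtdap* and *Pi16* kinds, 1.15 in tenocytes and 0.68 in macrophages. *Hspa1a* was 13.7-fold higher in tenocytes and 3.61-fold higher in macrophages, so this difference, too, was met in every cell type looked at. The HSF1-type motif of GAA, TTC and GAA with any 2 bases between neighbours, read on both strands, was in the promoter windows of 3 of 10 matched genes of the list, 1 of the 7 higher ones among them, and in 0.662% of all genes.

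**Figure D3:**
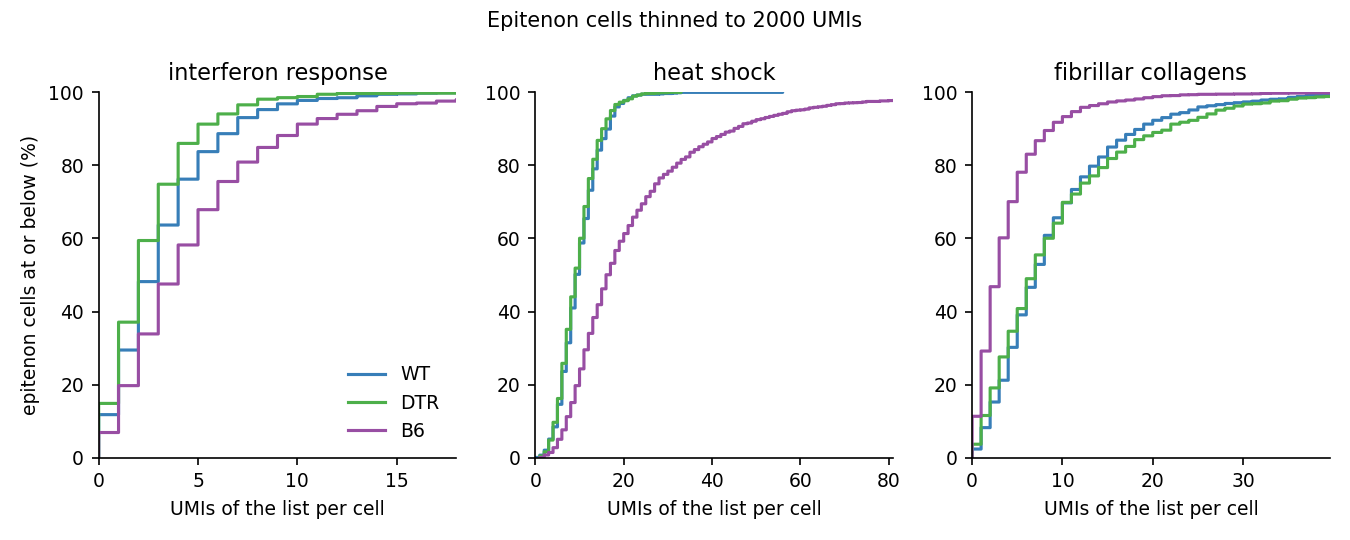
Cumulative share of epitenon cells (y axis, percent) holding at most a given number of UMIs (x axis) of the interferon response, heat shock and fibrillar collagen lists, after thinning every cell to 2000 UMIs. The B6 curve lies to the right of WT and DTR for the first 2 lists, with medians of 4 against 3 and 2 and of 16 against 9 and 9 UMIs, and to the left for collagens, with a median of 3 against 7 and 7.

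Immediate early genes, which answer stress within minutes and also tissue digestion, were higher as a group. Of 19 listed genes, 4 were at least 2-fold higher, namely *Zfp36*, *Myc*, *Junb* and *Egr1*, none was 2-fold lower, and the median log2 ratio was 0.74. *Zfp36*, which destabilizes cytokine mRNA, was at 524 CPM in WT, 527 in DTR and 1307 in B6, and *Junb* at 1053, 1007 and 2348 CPM. *Egr1* was at 829, 1062 and 1715 CPM, with DTR between the others. *Fos* was at 1464, 1822 and 2595 CPM and *Jun* at 966, 1090 and 1422 CPM, both under 2-fold. The median was 0.09 for DTR over WT and 0.51 for B6 over DTR, in tenocytes 0.84 and in macrophages −0.42. Digestion time differed between WT and the other 2 libraries, and its part in this list was not tested.

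Cytokine genes divided. Of 14 genes compared, *Socs3*, *Il6* and *Bcl3* were at least 2-fold higher and *Il1rl1* lower, and the median log2 ratio was 0.05. *Il6*, the cytokine that signals through STAT3, was at 341 CPM in WT, 204 in DTR and 913 in B6, a ratio of 2.68 (2.60 to 2.76). *Socs3*, the feedback inhibitor of that pathway, was at 106, 105 and 417 CPM, a ratio of 3.92 (3.72 to 4.12), and 0.911 in macrophages. *Stat3* itself was at 185, 141 and 262 CPM. *Il1rl1*, the receptor for interleukin 33, was at 108, 304 and 42.6 CPM, so that B6 lay below WT and DTR above it. Other genes of the list, such as *Nfkbia*, with a ratio of 0.997 (0.982 to 1.01), and *Tnfaip3*, with 0.942 (0.902 to 0.983), were near 1.

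Of 12 chemokine genes compared, *Ccl8* and *Cxcl9* were at least 2-fold higher. *Ccl8*, which draws monocytes, was at 18.6 CPM in WT, 12.4 in DTR and 93.7 in B6, a ratio of 5.04 (4.47 to 5.71). Its level was 3.50 CPM in WT and 105.7 CPM in B6 in male cells and 25.2 and 92.0 CPM in female cells, and the ratio was 2.15 in the *Pi16* kind. *Cxcl9*, an interferon gamma target, was at 0.637, 0.637 and 11.4 CPM and passed the filter through B6 alone. The abundant *Ccl2*, *Cxcl1* and *Ccl7* had ratios of 0.940, 0.809 and 0.987. *Cxcl12* was at 227, 127 and 429 CPM and *Ccl11*, the eotaxin, at 251, 173 and 446 CPM, below 2-fold against WT and above it against DTR. The list's median log2 ratio was 0.57.

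Complement genes stood higher with a median log2 ratio of 0.75 over 9 genes, 2 of them past 2-fold. *C4b* was at 53.9 CPM in WT, 60.02 in DTR and 152 in B6. *C7*, of the membrane attack complex, was at 2.1, 4.40 and 18.4 CPM and passed the filter through B6 alone. *C3* was at 273, 126 and 522 CPM and *C1s1* at 139, 119 and 234 CPM. MHC class I genes differed less: of 8 compared, the peptide transporter *Tap1* and the immunoproteasome subunit *Psmb8* were over 2-fold higher and passed the filter through B6 alone, while *H2-D1* had a ratio of 0.977 and *B2m* was at 440, 491 and 755 CPM. The acute phase genes were low and mixed, with *Saa1* at 43.0, 4.01 and 14.9 CPM and *Hp* at 5.16, 10.1 and 10.5 CPM. Thinned cells with *Saa1* were 2.61% of epitenon cells and 2.51% of macrophages in WT and 0.877% and 0.658% in B6. These shares cannot tell background from epitenon expression, and the part of background in them was not tested. All 4 acute phase genes compared were higher in tenocytes of WT, at 74.1 to 1214 CPM.

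The metallothioneins, small proteins that bind zinc and copper, were both higher. *Mt1* was at 2763 CPM in WT, 1974 in DTR and 9316 in B6, a ratio of 3.37 (3.34 to 3.41), and *Mt2* at 1438, 756 and 5068 CPM, a ratio of 3.52 (3.48 to 3.57). They stood on an antioxidant list in which no other member was 2-fold higher. Of its 11 genes compared, 4 stood above WT, the metallothioneins among them, and 7 below, beside 6185 of 7750 below over all genes. *Slc7a11*, the cystine transporter that feeds glutathione synthesis, was at 117, 55.1 and 24.3 CPM, a ratio of 0.207 (0.190 to 0.225), and *Nqo1* at 27.2, 25.9 and 11.8 CPM. *Hmox1*, *Gclm* and *Prdx1* had ratios of 0.772, 0.841 and 0.983. In tenocytes, *Mt1* was at 10538 CPM in WT and 24728 in B6, higher in both than in epitenon cells, and *Slc7a11* was 0.252 times WT. Macrophages held 474 CPM of *Slc7a11* in WT and 198 in B6, above the epitenon cells, and the part of their RNA in its ratio was not tested.

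Genes for hyaluronan, the glycosaminoglycan of gliding surfaces, were mixed. *Has1*, a hyaluronan synthase, was at 936 CPM in WT, 640 in DTR and 2807 in B6, a ratio of 3.00 (2.95 to 3.05), while *Has2* had a ratio of 1.34 and *Tnfaip6*, which links proteins to hyaluronan, 1.61. *Cd44*, the receptor, had a ratio of 0.787.

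The other genes named on the higher side have no shared list. *Inmt*, an enzyme that methylates indoles, was at 22.7 CPM in WT, 12.6 in DTR and 144 in B6, a ratio of 6.34 (5.69 to 7.08). It was 7.76-fold higher in the *Krtdap* kind and 2.87-fold in the *Pi16* kind. *Fgl2*, a secreted fibrinogen-like protein with roles in immune regulation, was at 171, 133 and 615 CPM, and was detected in 11.8% (9.83 to 14) of thinned WT cells and 29.8% (27.8 to 31.8) of B6 cells, against 2.87% and 5.48% of macrophages. In male cells *Fgl2* was 8.03-fold and *Dpep1* 6.89-fold higher. *Cyp2f2*, a cytochrome P450, was at 17.9, 26.7 and 64.0 CPM and *Dpep1*, a membrane dipeptidase, at 15.2, 15.2 and 53.9 CPM. Macrophages held under 1 CPM of both in WT and B6.

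A further set also stood higher in every cell type looked at. *Gm42418* was at 12197 CPM in WT, 11576 in DTR and 46295 in B6, and its ratio of B6 over WT was 3.80 in epitenon cells, 3.603 in tenocytes and 4.48 in macrophages. The 13 mitochondrially encoded genes were all higher, 4 of them past 2-fold, with median log2 ratios of 0.84, 0.97 and 1.10 in the same 3 cell types. Of 81 ribosomal protein genes compared, none was 2-fold apart and the median was 0.03.

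Collagens were among the lower genes. All 8 listed fibrillar collagen genes stood lower in B6 than in WT, beside 6185 of all 7750 genes compared. Of the 6 that passed the filter, all in both libraries, 3 were at least 2-fold lower, and the median log2 ratio was −0.97 beside −0.27 over all genes. It was 0.07 for DTR over WT and −1.17 for B6 over DTR. Summed, the 8 genes stood at 4638 CPM in WT, 4877 in DTR and 2060 in B6.

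*Col3a1*, the collagen of thin fibrils in loose connective tissue, was at 1636 CPM in WT, 1962 in DTR and 525 in B6, a ratio of 0.321 (0.315 to 0.327). It was detected in 76.3% (73.5 to 78.9) of thinned WT cells and 44.6% (42.4 to 46.8) of B6 cells, and in 4.31% and 1.97% of macrophages. *Col1a1* was at 958, 845 and 391.9 CPM and *Col5a2*, which regulates fibril diameter, at 430, 496 and 212 CPM. *Col1a2* was at 1281, 1227 and 734 CPM, a ratio of 0.573 (0.562 to 0.584). B6 was below both other libraries for each of these 4 genes.

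Type I collagen RNA was also counted in macrophages, which should lack it. They held 250 CPM of *Col1a1* in WT and 14.8 CPM in B6, where tenocytes were at 6239 and 2299 CPM. For *Col3a1*, macrophages held 36.0 and 11.8 CPM, far below the epitenon cells of each library. The *Col3a1* ratio was 0.314 in the *Krtdap* kind and 0.374 in the *Pi16* kind, and 0.854 in tenocytes, where levels were 892 CPM in WT and 763 in B6. The fibrillar list's median log2 ratio was −0.97 and −1.02 in the 2 kinds, and −0.35 in tenocytes. The part of free RNA in the *Col1a1* ratio was not tested.

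Of 10 pericellular and fibril-associated collagen genes, *Col6a3* and *Col15a1* were at least 2-fold lower. Below WT stood 9 of the 10, near the share over all genes, 6185 of 7750. *Col6a3* was at 269 CPM in WT, 268 in DTR and 117 in B6, and *Col15a1*, of basement membrane zones, at 56.4, 30.4 and 25.7 CPM. *Col14a1*, which binds fibril surfaces, was the exception at 144, 144 and 189 CPM. Among matricellular genes, *Sparc*, which chaperones collagen, was at 2064, 2214 and 1104 CPM, a ratio of 0.535, and *Postn* at 19.6, 13.6 and 6.93 CPM. *Fn1*, fibronectin, was at 6085, 11271 and 4203 CPM, so that B6 lay below WT and far below DTR. Of 14 genes of collagen processing and 7 small leucine-rich proteoglycans, none reached 2-fold either way, with median log2 ratios of −0.28 and −0.15. Among 10 elastic fibre genes, *Fbln5* was 2.01-fold higher (1.87 to 2.15), a value at the threshold, and the median was 0.06. Of 14 proteases and inhibitors, *Mmp3* alone passed 2-fold, at 62.8, 70.1 and 27.4 CPM.

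From a list of Wnt ligands, antagonists and other genes of the pathway, 8 genes were compared. The antagonists *Wif1*, *Dkk2*, *Dkk3* and *Sfrp4* were at least 2-fold lower, beside 1.57% of all genes compared. Of these antagonists, 2 had reached 10 CPM in WT alone. The median log2 ratio was −1.03, or −0.45 in cells called female and −1.74 in cells called male. Of the 8 genes, 3 passed the filter through WT alone, which tilts the medians over WT downward, so these are a description. The antagonist *Sfrp1* had a ratio of 0.977, and the ligands *Wnt2* and *Wnt11* had ratios of 0.916 and 1.44. *Dkk3* was at 73.2 CPM in WT, 72.7 in DTR and 26.1 in B6, and *Sfrp4* at 97.0, 92.6 and 41.5 CPM, where WT and DTR were alike. *Wif1* was at 28.9, 5.48 and 6.55 CPM and *Dkk2* at 27.6, 5.86 and 8.70 CPM, where DTR lay with B6 and WT stood apart. The list therefore had a median of −0.82 for DTR over WT and 0.52 for B6 over DTR. *Wif1* was at 272 CPM in WT tenocytes and 25.5 CPM in WT macrophages, the latter close to its epitenon level. The part of tenocyte RNA in its ratio was not tested. *Chrdl1*, which binds and blocks BMPs, was at 66.1, 42.5 and 21.7 CPM, a ratio of 0.329 (0.298 to 0.363), while in male cells the ratio was 0.215 and in tenocytes 1.15.

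The other genes named on the lower side belong to no shared list. *Aqp1*, a water channel, was at 429 CPM in WT, 743 in DTR and 141 in B6, a ratio of 0.328 (0.316 to 0.341), and stood at 1.02 in tenocytes. Macrophages held more of it, at 1190 CPM in WT and 635 in B6, and the part of their RNA in the ratio was not tested. *Stmn2*, a stathmin that binds tubulin, was at 267, 199 and 94.4 CPM and nearly absent from tenocytes, at 7.52 CPM in WT. It was detected in 27.2% (24.4 to 30.1) of WT and 11.1% (9.74 to 12.5) of B6 cells, against 0.180% and 0.439% of macrophages. *S100g*, a calcium-binding protein, was at 405, 159 and 82.9 CPM, *Slurp1*, a secreted Ly6 protein, at 230, 154 and 66.2 CPM and *Serpinb7*, a protease inhibitor, at 68.1, 32.0 and 21.6 CPM. For these 3 genes and for *Egln3*, the oxygen-dependent hydroxylase of HIF, at 75.3, 33.3 and 27.7 CPM, DTR lay between WT and B6. WT tenocytes held 293 CPM of *S100g*, 286 of *Slurp1*, 62.1 of *Serpinb7* and 45.6 of *Egln3*. Their tenocyte ratios of B6 over WT were 0.747, 0.394, 0.313 and 0.389, so the lower levels were not seen in epitenon cells alone. The part of tenocyte RNA in the epitenon ratios was not tested. *Crabp2*, which carries retinoic acid to the nucleus, was at 64.1, 76.2 and 24.5 CPM and the scaffold protein gene *Mpp6* at 81.2, 77.5 and 31.1 CPM. Macrophages held 109 CPM of *Mpp6* in WT and 110 in B6, above the epitenon cells of both libraries. The ratio of *S100g* was 0.339 in male cells, and in the *Pi16* kind that of *Stmn2* was 0.171 and that of *Slc7a11* 0.0801. In the *Pi16* kind, *Egln3* and *Mpp6* had log2 ratios of −0.65 and −0.94 and so did not reach 2-fold.

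Among the named genes, the lowest ratios were those of *Spp1* and *Chad*, which tenocytes express at far higher levels, as they do *Coch*. *Spp1*, osteopontin, was at 96.6 CPM in WT epitenon cells, 42.9 in DTR and 3.66 in B6, a 26.4-fold lower level than in WT, while WT and B6 tenocytes held 3541 and 774 CPM and macrophages 415 and 59.6 CPM. The WT epitenon level was 2.73% of the tenocyte level, and thinned cells with *Spp1* were 7.001% of WT epitenon cells and 20.3% of WT macrophages, which can express it. With at most 2 tenocyte UMIs allowed per cell, *Spp1* was 10.03-fold lower and *Chad* 3.40-fold lower. *Spp1* was 41.6-fold lower in female and 12.2-fold lower in male cells. The part of tenocyte RNA in the *Spp1* ratio was not tested. *Chad*, chondroadherin, was at 58.1, 20.5 and 8.35 CPM against 2827 and 1432 CPM in WT and B6 tenocytes. *Coch*, cochlin, was at 122, 17.6 and 36.5 CPM against 12198 and 5346 CPM. In WT, epitenon cells held 2.06% and macrophages 2.94% of the tenocyte level of *Chad*, and 0.996% and 2.98% of that of *Coch*. Thinned cells with *Coch* were 14.1% of epitenon cells and 17.95% of macrophages in WT and 3.41% and 3.29% in B6. *Chad* was in 4.60% and 5.21% in WT and in 1.32% and 1.10% in B6. The epitenon shares of thinned cells with *Chad* and *Coch* were thus near those of macrophages, which should lack both genes. In WT, the epitenon levels of both lay below the macrophage levels. The epitenon values are not taken to show epitenon expression. The macrophage rule set no limit on tenocyte genes, and the part of tenocyte RNA in these values was not tested. Most of the tenocyte marker sum was *Comp*, at 1585, 1100 and 1063 CPM.

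**Figure D4:**
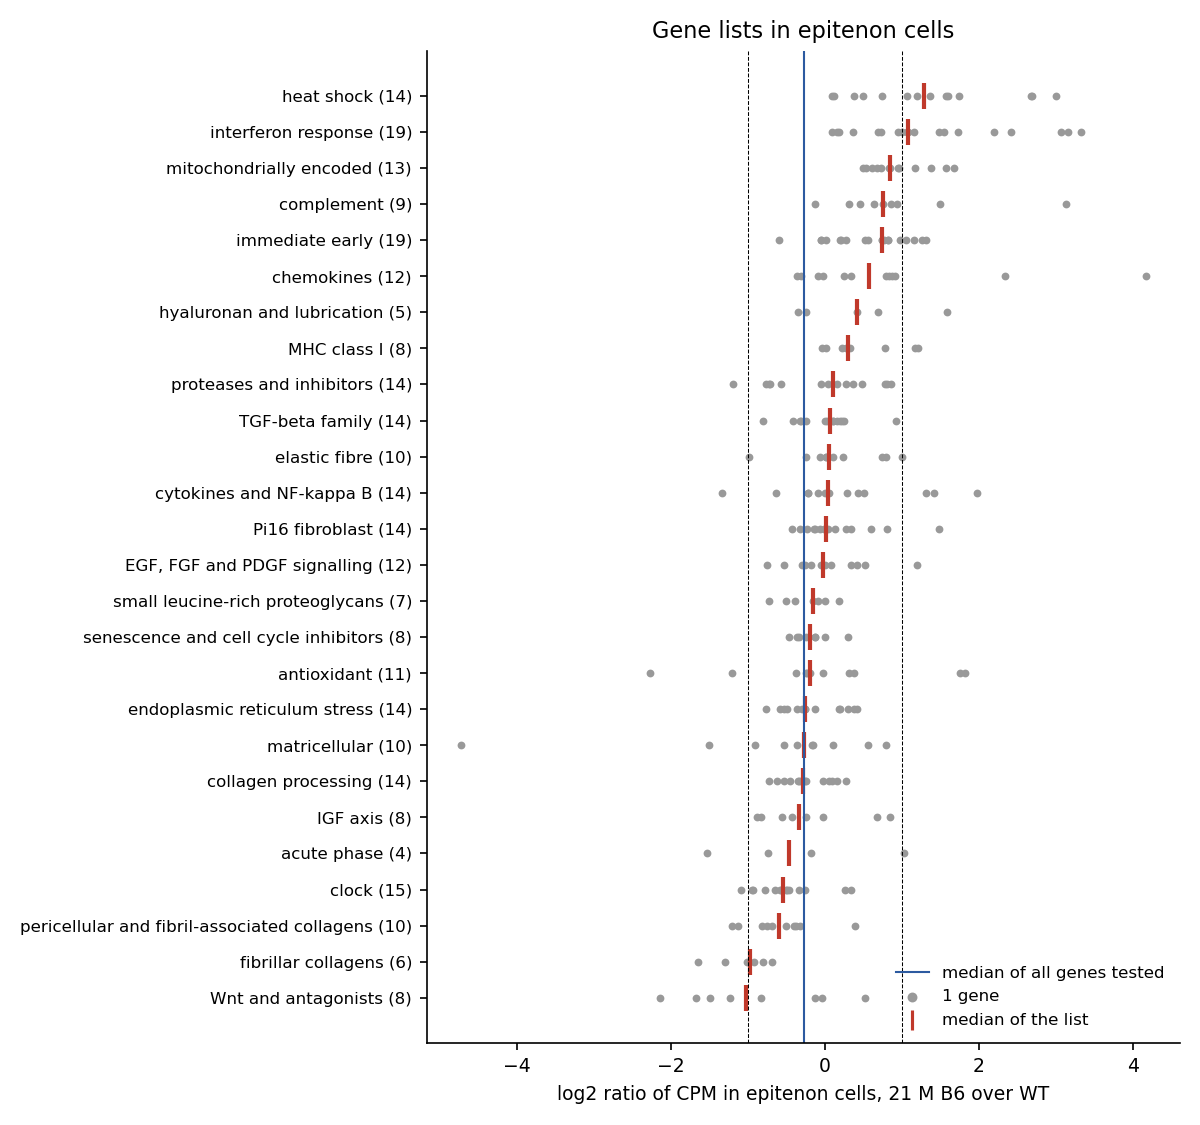
Log2 ratios of B6 over WT in epitenon cells (x axis) for gene lists (y axis, with the number of genes compared). Grey points are genes, red bars list medians, the blue line the median of −0.27 over all genes and dashed lines 2-fold either way. Heat shock (1.28) and interferon response (1.08) lie at the top and Wnt and antagonists (−1.03) and fibrillar collagens (−0.97) at the bottom. Of the 19 interferon response genes, 9 passed the filter through B6 alone, and of the 8 Wnt genes, 3 through WT alone.

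Several lists had no gene past 2-fold, beside small shares of 1.97% higher and 1.57% lower over all genes compared. These were 14 endoplasmic reticulum stress genes, 14 of the TGF-beta family, 8 of the IGF axis and 8 senescence and cell cycle inhibitor genes. Their median log2 ratios were −0.25, 0.07, −0.34 and −0.19. *Cdkn1a*, the p21 cell cycle inhibitor, was at 1224 CPM in WT, 1000 in DTR and 1226 in B6. *Cdkn2a* was below the filter. The median log2 ratio was −0.60 for pericellular and fibril-associated collagens, −0.26 for matricellular genes, 0.10 for proteases and inhibitors, 0.42 for hyaluronan and lubrication, 0.30 for MHC class I, −0.46 for the acute phase (0.87 in the *Pi16* kind, −1.22 in female and 1.26 in male cells) and −0.19 for the antioxidant list. Of 14 genes of *Pi16* fibroblasts, many of them also among the stromal genes given above, *Opcml* alone was past 2-fold and the median was 0.01. Of 12 EGF, FGF and PDGF genes, *Hgf* alone was, at 4.78, 5.99 and 10.9 CPM, with a median of −0.03. Both *Opcml* and *Hgf* passed the filter through B6 alone. Circadian clock genes had a median of −0.54 over 15 genes. *Per3*, at 24.1, 25.8 and 11.4 CPM, was past 2-fold, while *Nr1d1* was at 142, 145 and 74.3 CPM and *Dbp* at 72.4, 89.9 and 37.4 CPM.

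**Figure D5:**
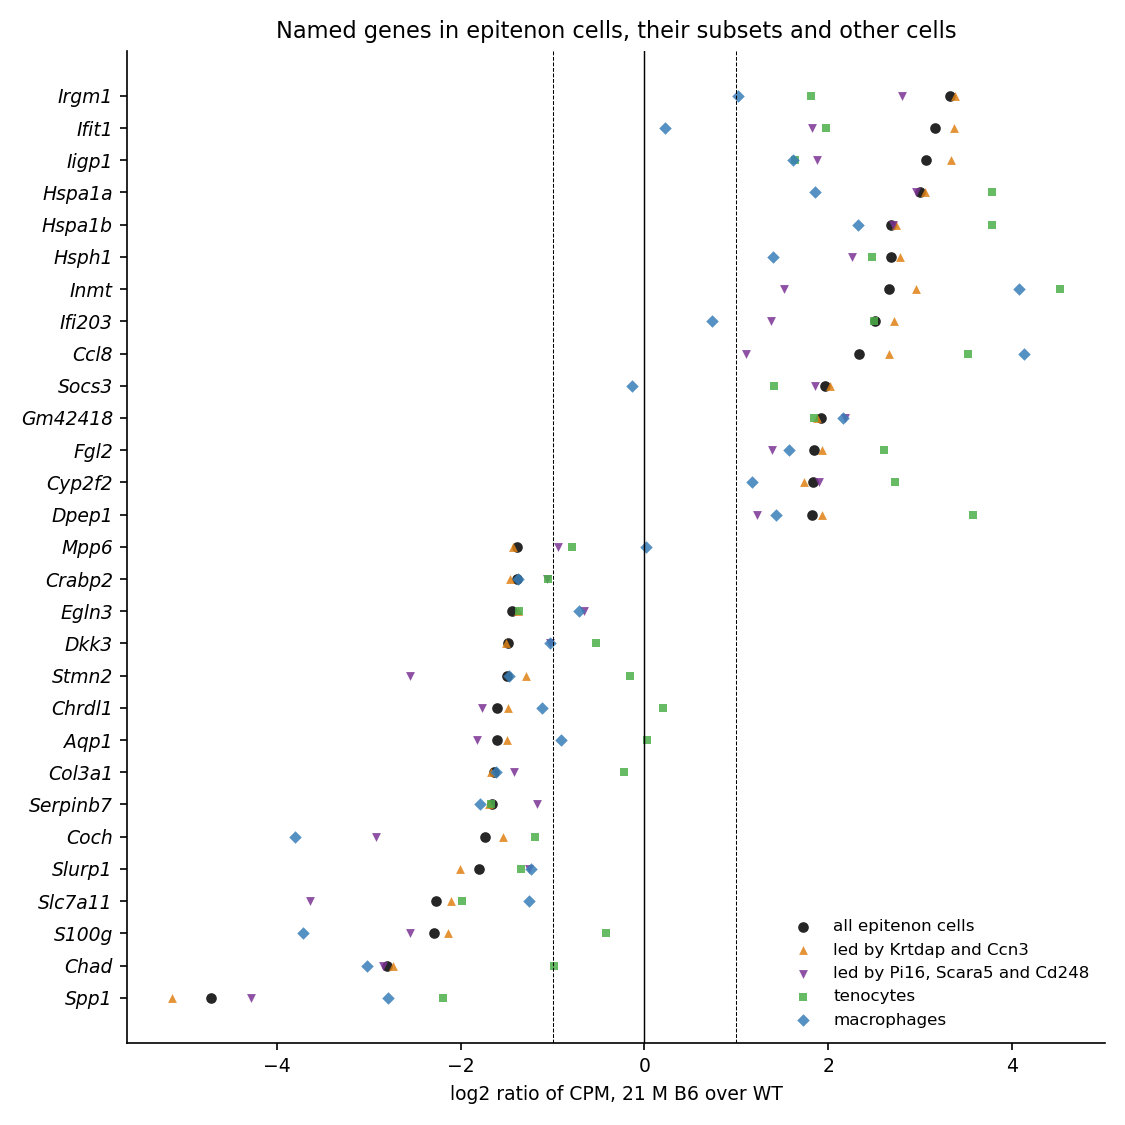
Log2 ratios of CPM, B6 over WT (x axis), for the 29 named genes (y axis) in all epitenon cells, their 2 kinds, tenocytes and macrophages; dashed lines mark 2-fold either way. *Irgm1* (3.32 in all epitenon cells) lies above 2-fold in all 5 classes, whereas *Col3a1* (−1.64) and *Aqp1* (−1.61) lie near 0 in tenocytes.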

How the data were processed

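Single-cell libraries of FDL tendons were made with the 10x Genomics 3 prime chemistry. The authors deposited UMI counts per gene and barcode from Cell Ranger, version 6.0.1 per the file headers and 2.1.1 per the submitters' processing notes, and the genome build is not given in the sources used here. The matrices list 32285 genes. Counts were summed over the epitenon cells of each library, chosen by the rule above, and scaled to CPM with Python 3.11.15, numpy 2.4.6, scipy 1.17.1 and pandas 2.3.3. Genes with at least 10 CPM in WT or B6 were compared by ratio, with exact conditional intervals for ratios and Clopper-Pearson intervals for shares, both at 95%. With 1 library a group, no test was possible. The ratio step was tested on simulated data.

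The named genes are the 15 largest and 15 smallest ratios at 50 CPM or more, without rule genes, *Xist* and Y-linked genes. These and the 27 pathway lists were chosen with earlier results of these data known. Some results, 1 of the 30 genes among them, are not reported here. Tenocytes needed at least 10 UMIs of their genes, as did macrophages. TMM factors came from edgeR 4.0.16 in R 4.3.3. Scrublet in scanpy 1.11.5 marked 2 WT and 1 B6 cells, too few to have worked, so doublets stayed in. Promoters are RefSeq windows of GRCm38.p6, whose build may differ from that of the counts.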

Additional observations from a re-analysis of the deposited data

How the results depend on the processing

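Of 17 alternatives, 14 gave gene ratios and list medians. Under these, none of 419 values of the named genes changed direction, and 2 no longer reached 2-fold, *Egln3* at −0.65 and *Mpp6* at −0.94 in cells led by *Pi16*, *Scara5* and *Cd248*. The medians of 9 lists at least 0.5 from 0 gave 126 values, none of which changed direction. These genes and lists were picked for large ratios in the same cells, and the alternatives reuse the same libraries. A change of direction was therefore unlikely from the start, and neither count is support for the differences. Sizes moved more than directions, as given beside the genes, and the ratio of *Coch* was 0.132 in the *Pi16* kind and 0.154 in female cells. The B6 share was 58.1% with a mitochondrial limit of 5%, 47.8% and 33.3% with at least 5 and 20 epitenon UMIs, 40.5% with the threshold per 10000 UMIs, 41.2% with at most 2 tenocyte UMIs, and 44.6% and 45.4% in female and male cells. The WT share was 13.2% with no upper limit on genes, 13.3% and 8.78% with at least 5 and 20 UMIs, 9.86% with at most 2 tenocyte UMIs and 13.3% in male cells. Higher genes numbered 269 with TMM factors, 64 at 50 CPM and 547 with no filter but 1 UMI in each library. Lower genes numbered 62, 34 and 1415 under these settings, 246 in male cells and 328 in cells led by *Pi16*, *Scara5* and *Cd248*. Scaling without *Gm42418*, *Lars2* and mitochondrial genes was chosen after seeing the data. The causes were not tested. No paired analysis was possible because each group was 1 library, which also allows no replicate to be left out, and the counts limit precision but say nothing of the spread between animals.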
